A study of Mus musculus with 8 samples.

Results

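Short-term (ST) stem cells of mice with a chronic myelogenous leukaemia (CML)-like disease were compared with ST haematopoietic stem cells (ST-HSCs) of normal mice, using 1 RNA-sequencing library of each, that is 2 of the 8 libraries of the study. The other 6 libraries, 2 of long-term (LT) CML stem cells, 2 of normal LT-HSCs and 1 each of CML and normal KLS- progenitors, served as a separate look at the genes that differed between the ST libraries. The files held 20207 genes, of which 8987 reached 2 RPKM (reads per kilobase of gene, scaled to the mapped reads of the library) in either ST library and were compared. Differences are given as log2(RPKM + 1) in ST-CML minus log2(RPKM + 1) in ST-HSCs, so that a difference of 1 is close to 2-fold for well-expressed genes and understates the fold change of genes near 0 RPKM. Because each group is 1 library, no ST difference has a replicate check and no p-value is attached to any of them.

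By the methods of the study, the CML animals were Tal1-tTA+ TRE-BCR-ABL1+ double-transgenic mice, in which a tetracycline-regulated activator made in Tal1-expressing blood cells switches on the BCR-ABL1 oncogene after doxycycline withdrawal, and the normal animals were littermates that carried Tal1-tTA alone. By that account both groups shared the tTA transgene. The labels give a strain and, for the 6-month LT-HSC library, an age that differ from this account. Whether the normal libraries carried the transgene could therefore not be checked. ST stem cells were sorted from bone marrow as CD150-CD48-CD135- cells of the KLS+ (c-Kit+ lineage- Sca-1+) fraction, LT stem cells as the CD150+ cells of the same fraction, and KLS- progenitors as c-Kit+ lineage- Sca-1- cells. The labels give an age of 2 months for the ST-HSC library and the KLS- library of normal mice, 2 and 6 months for the normal LT-HSC libraries, and no age for any CML library. How many animals went into a library was not given in the sources used here. The labels name C57BL/6 for all 8 libraries, whereas the methods describe the transgenic line on FVB/N, so a difference in strain between normal and CML libraries could not be checked and strain and disease cannot be told apart.

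ST stem cells are multipotent cells that give rise to all blood lineages but repopulate a recipient for a limited time, in contrast to LT stem cells, which do so durably. BCR-ABL1 is a constitutively active tyrosine kinase that signals through STAT5, RAS and PI3K, and the disease it drives in mice is an overproduction of granulocytes. Type I interferon, acting through the ISGF3 transcription factor complex, induces a set of antiviral genes that normal haematopoietic stem cells express at a standing level.

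Transcripts of the sorted markers followed the gates in part. Kit, the c-Kit receptor, was at 153 RPKM in ST-CML and 213 in ST-HSCs, and Ly6a, which encodes Sca-1, at 136 and 152. Slamf1 (CD150) was low in both ST libraries, at 2.87 and 1.11 RPKM, and between 10.7 and 35.5 in the 4 LT libraries. Cd48 and Flt3 (CD135) transcripts were present in both ST libraries although the gate excluded the surface proteins: Cd48 was at 45.1 and 41.8 RPKM, and Flt3 at 71.6 and 61.6 RPKM, above the LT libraries, where Flt3 lay between 2.52 and 19.2. None of the 6 sort markers differed by 1 or more between the ST libraries. The female-specific transcript Xist was at 24.3 and 23.6 RPKM in the ST libraries and at 0.154 RPKM in the 6-month LT-HSC library, and Y-linked transcripts were found in that library and in the second LT-CML library, with Ddx3y at 31.0 and 17.5 RPKM, but at 0 in both ST libraries. The 2 libraries of each LT pair therefore differed in sex make-up.

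The ST-CML library had an estimated 18.6 M reads and the ST-HSC library 18.8 M, within the range of 17.8 to 23.9 M over the 8 libraries. For a gene with 1 kb of exons, 3 reads amount to 0.161 RPKM in ST-CML and 0.160 in ST-HSCs, which sets the level below which a value carries little information. Counting intervals are 95% exact binomial intervals on estimated reads and cover counting error only, since reads of amplified cDNA are not independent molecules. In bulk libraries, fewer cells of a type and less RNA per cell cannot be told apart.

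Most genes differed little. Of the 8987 genes, 7289 (81.1%) lay within 0.5 of each other, 216 (2.40%) were higher by at least 1 in ST-CML and 230 (2.56%) were lower by at least 1. The largest positive differences exceeded the largest negative ones: 35 genes were higher by at least 3 and 2 were lower by as much. Many of the called genes were near absence on one side, with 131 of the 216 higher genes below 2 RPKM in ST-HSCs and 77 of the 230 lower genes below 2 RPKM in ST-CML. The median difference over all genes was -0.12, and upper-quartile scaling brought it to -0.019. With that scaling 254 genes were higher and 179 lower, in place of 216 and 230, so the balance of higher and lower genes depends on how the libraries are scaled, and the differences below are best read against -0.12.

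**Figure D1:**
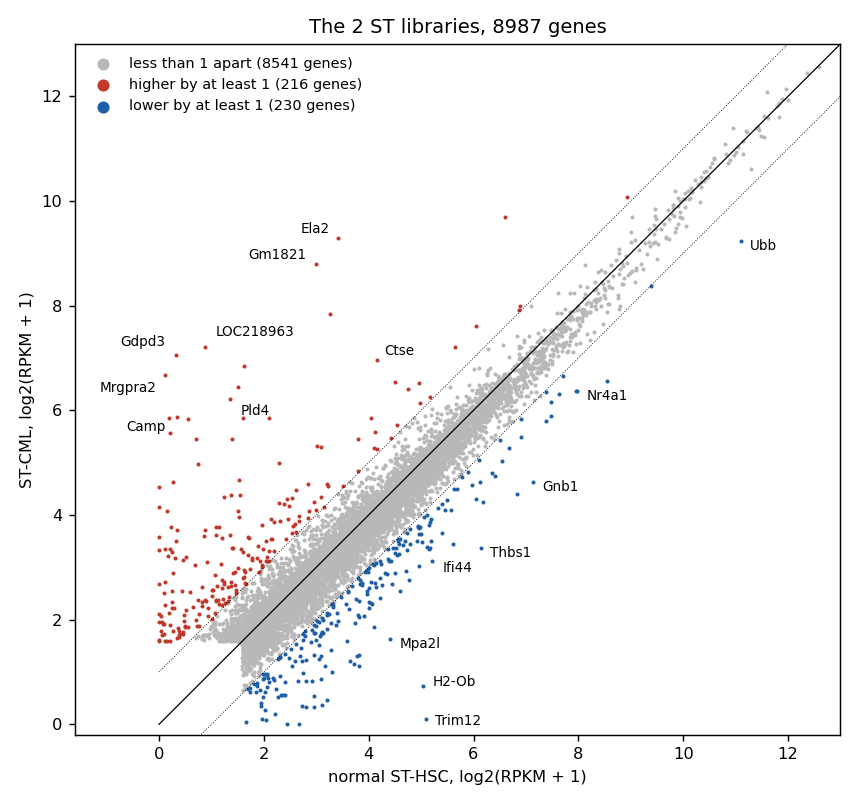
Each point is 1 of 8987 genes, with log2(RPKM + 1) in normal ST-HSCs on the x axis and in ST-CML on the y axis. Red points are the 216 genes higher by at least 1 and blue points the 230 lower by at least 1, the solid line marks equality and the dotted lines a difference of 1. The genes with the largest differences, Gdpd3 and Mrgpra2, lie near 0 in ST-HSCs, and Trim12 and H2-Ob lie near 0 in ST-CML.

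The LT libraries were a separate set in which the same genes could be read, though whether they came from the same animals as the ST libraries was not given in the sources used here. Of the 216 genes higher in ST-CML, 136 were also higher in both LT-CML libraries than in both LT-HSC libraries, an ordering seen in 1613 of all 8987 genes (17.9%), while 12 had the opposite ordering and 68 overlapped. Of the 230 genes lower in ST-CML, 181 were lower in both LT-CML libraries than in both LT-HSC libraries, against 1948 of all genes (21.7%), 3 had the opposite ordering and 46 overlapped. In a limma fit of the LT libraries over 9778 genes, 120 genes (1.23%) were higher and 119 (1.22%) lower at an adjusted p below 0.05. Each LT library carried weight in it: without the second LT-CML library 20 genes were higher and 8 lower, and leaving out any other LT library gave 36 to 53 higher and 17 to 55 lower. The fit of all libraries called 73 of the 216 higher ST genes higher and 3 lower, and 84 of the 230 lower ST genes lower. In KLS- cells, again 1 library against 1, 102 of the 216 higher genes were higher by at least 1, compared with 1.95% of all genes, and 93 of the 230 lower genes were lower by at least 1, compared with 1.67%.

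Spread between libraries of 1 population was not even across the called genes. At least 1 log2 unit separated the 2 LT libraries of a population for 221 of all 8987 genes (2.46%), for 31 of the 230 genes lower in ST-CML, and for 71 of the 216 genes higher in ST-CML. The higher genes therefore included many whose level varied between LT libraries of the same disease state, and the granule genes described further on were among them.

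Gdpd3, a lysophospholipase D, had the largest difference of all genes. It stood at 132 RPKM in ST-CML and 0.249 in ST-HSCs, 95 and 88.5 in LT-CML against 0.329 and 0.314 in LT-HSCs, and 41.0 against 1.43 in KLS- cells. All 4 CML libraries were far above all 4 normal ones. Its ST ratio was 529.5-fold (95% counting interval 226 to 1629, from 2620 and 5 estimated reads), and the LT difference was 6.13 ± 0.19 (SE, limma adjusted p = 7.8e-07). The gene lies at chr7:133909928-133919157 on the plus strand of mm9 (NCBI Build 37, GENCODE M1 gene model). Among the other genes of lysophospholipid enzymes and receptors, 13 of which passed 2 RPKM including Gdpd3, S1pr1 was lower (12.4 against 30.1 RPKM, a difference of -1.21). The list thus had 1 higher and 1 lower member, beside 2.40% and 2.56% of all genes, and the higher one, Gdpd3, passed 2 RPKM through ST-CML alone. S1pr1 is the sphingosine-1-phosphate receptor used in cell egress, and the remaining members differed by less than 1.

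Mrgpra2 is a Mas-related G protein-coupled receptor with the second largest difference, and its name matches 2 RefSeq genes, so its value is uncertain. It had 101 RPKM in ST-CML and 0.0844 in ST-HSCs, 70.6 and 56.1 in LT-CML against 0.915 and 6.05 in LT-HSCs, and 76.8 against 17.7 in KLS- cells. The CML libraries were again all above the normal ones, although normal KLS- cells already carried the transcript. Pld4, an endolysosomal exonuclease of dendritic cells and B cells, had 73.1 RPKM in ST-CML and 1.56 in ST-HSCs, 36.6 and 31.0 in LT-CML against 2.23 and 3.85 in LT-HSCs, and 62.1 against 20.3 in KLS- cells. Its ST ratio of 46.9 (interval 36.1 to 61.9) came with an LT difference of 3.13 ± 0.24 (SE, limma adjusted p = 0.00039). CML and normal libraries of Pld4 did not overlap in any population.

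Trim12, a member of the TRIM family of antiviral restriction factors, had the largest negative difference. It had 0.0704 RPKM in ST-CML and 33.3 in ST-HSCs, 0.158 and 0.180 in LT-CML against 20.3 and 23.3 in LT-HSCs, and 0.110 against 12.5 in KLS- cells. No CML library exceeded 0.180 RPKM and no normal library was below 12.5, and the LT difference was -4.28 ± 0.19 (SE, limma adjusted p = 7.6e-06). H2-Ob, the beta chain of the HLA-DO homologue that restrains peptide loading of MHC class II, had 0.663 RPKM in ST-CML and 31.9 in ST-HSCs, 0.145 and 0.226 in LT-CML against 6.95 and 3.20 in LT-HSCs, and 0.273 against 4.36 in KLS- cells. It was lower in every CML library than in every normal one, and the normal ST-HSC library was the highest of the 8. The ST ratio was 48.1-fold lower in ST-CML (interval 35.0 to 67.2), with an LT difference of -2.29 ± 0.30 (SE, limma adjusted p = 0.00465).

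Gnb1, the beta 1 subunit of heterotrimeric G proteins, combined a high level with an even difference. It had 23.6 RPKM in ST-CML and 140.1 in ST-HSCs, 26.2 and 23.2 in LT-CML against 146 and 140.2 in LT-HSCs, and 19.7 against 128 in KLS- cells. The 4 normal libraries lay between 128 and 146 RPKM and the 4 CML libraries between 19.7 and 26.2, and the ST ratio was 5.92-fold lower (interval 5.6 to 6.28). Vill, a villin-like actin regulator, was at 0.264 RPKM in ST-CML and 6.76 in ST-HSCs, and its LT and KLS- differences were -2.43 and -2.32. Rasd1, a dexamethasone-inducible RAS-like protein, was at 1.17 and 13.1 RPKM, with an LT difference of -1.80 and a KLS- difference of -1.54. Slc16a12, a monocarboxylate transporter family member, was at 0.374 and 8.25 RPKM with an LT difference of -1.80, and was close to 0 in both KLS- libraries. Mpa2l, a guanylate-binding protein of the interferon-inducible family, was at 2.11 and 20.3 RPKM with an LT difference of -2.02 and was likewise near 0 in KLS- cells. 4930481A15Rik, an uncharacterised transcript, was at 1.5 and 13.2 RPKM, and its LT difference was -1.46 while KLS- cells held 5.61 against 5.58 RPKM.

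Thbs1 stood out among the lowest genes in having no counterpart in the other populations. Thbs1, the matrix protein thrombospondin-1, had 9.39 RPKM in ST-CML and 69.5 in ST-HSCs, 8.38 and 3.29 in LT-CML against 9.83 and 1.68 in LT-HSCs, and 1.92 against 2.21 in KLS- cells. The ST-HSC library was the highest of the 8 by a wide margin, the 2 LT groups overlapped, and the LT difference was 0.24. The ST difference of -2.76 thus rested on the level of a single normal library.

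**Figure D2:**
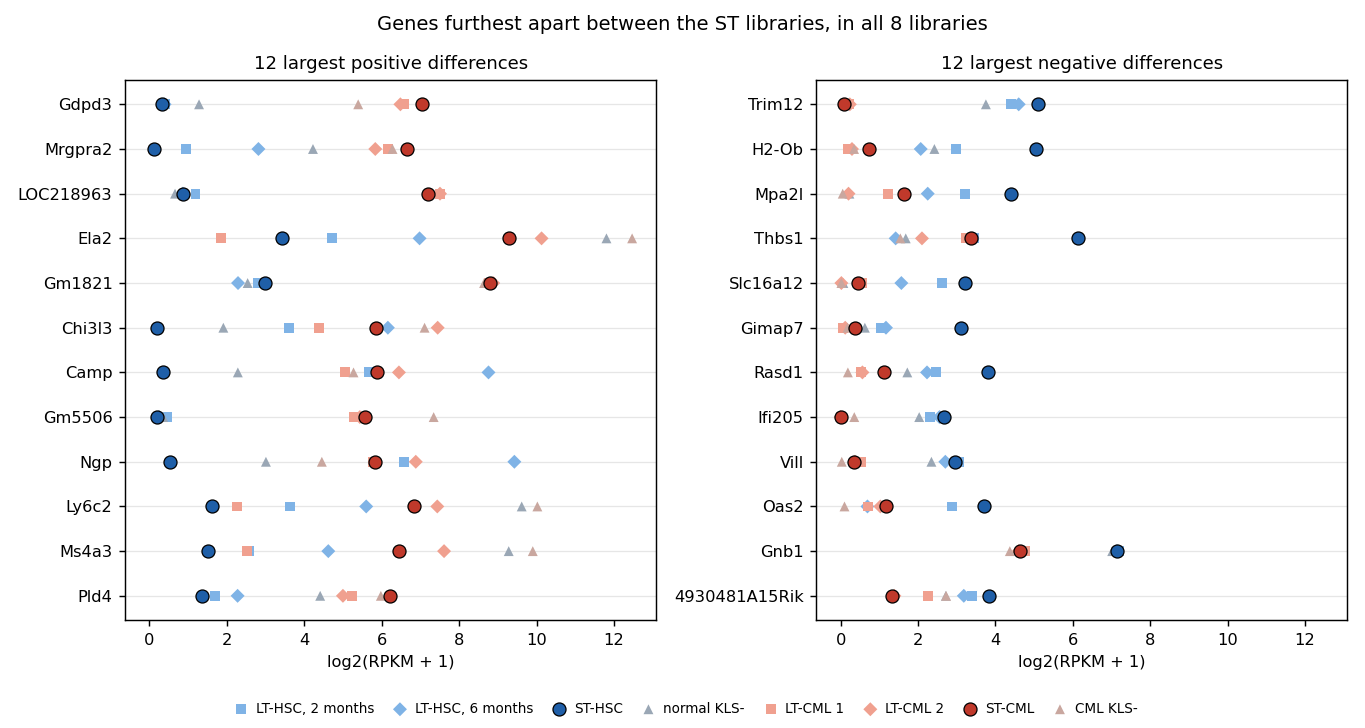
Level of the 12 genes with the largest positive (left) and negative (right) ST difference, as log2(RPKM + 1) on the x axis, in all 8 libraries. Circles with a black rim are the ST libraries, pale squares and diamonds the LT libraries and pale triangles the KLS- libraries, with CML in red tones and normal in blue or grey. For Gdpd3, LOC218963, Gm1821, Gm5506, Trim12 and Gnb1 the CML and normal libraries form separate clusters, whereas for Ela2, Camp, Ngp and Ly6c2 the LT libraries of either state are widely scattered.

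Several of the most changed genes are copies of another gene, and their values are uncertain because the treatment of reads that match more than 1 place was not given in the sources used here. Gm1821, which RefSeq lists as a pseudogene of the ubiquitin gene Ubb, had 442 RPKM in ST-CML and 6.93 in ST-HSCs, 436 and 470.5 in LT-CML against 5.97 and 3.89 in LT-HSCs, and 399 against 4.81 in KLS- cells. Ubb itself had 603 RPKM in ST-CML and 2204 in ST-HSCs, 599 and 656 in LT-CML against 2124 and 1811 in LT-HSCs, and 551 against 1694 in KLS- cells. The copy was higher and the parent gene lower in all 4 CML libraries, and how reads were divided between the pair is not known. Gm5506, listed in RefSeq as Eno1b, a copy of the enolase gene Eno1, was at 46.3 RPKM in ST-CML and 0.151 in ST-HSCs, and Eno1 was at 11.9 and 11.4. LOC218963, a predicted locus without a match in the annotation, was at 147 and 0.838 RPKM, and between 148 and 182 in the other CML libraries.

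Genes past a difference of 1 the same way in ST, LT and KLS- cells, with LT libraries that did not overlap, numbered 59 higher (0.657% of the 8987) and 56 lower (0.623%). Among the 59 were Ctse, the aspartic protease cathepsin E, at 123 against 16.8 RPKM in ST cells with an LT difference of 3.13 and a KLS- difference of 2.64. Tnfrsf14, the receptor HVEM, was at 19.8 against 1.91 RPKM, with differences of 2.34 in LT and 3.47 in KLS- cells. Cap1, an actin-recycling protein, was at 147 against 49.3 RPKM, with 1.85 and 1.62. Serpina3f, a serine protease inhibitor of the Serpina3 cluster, was at 30.8 against 3.88 RPKM, with 2.88 and 2.54. Separation of the disease groups in all 3 populations was the rule that picked the 59 genes, so it is not a separate result for these 4. Ctse, Tnfrsf14 and Cap1 were chosen after their values were seen, as abundant members of this group.

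The following of the 56 genes that were lower in all 3 populations were also chosen after their values were seen, among the more abundant of them. Sfrs2, the splicing factor SRSF2, had 20.1 RPKM in ST-CML and 113 in ST-HSCs, 29.3 and 33.2 in LT-CML against 104 and 123 in LT-HSCs, and 30.6 against 116 in KLS- cells. The 4 CML libraries lay well below the 4 normal ones, and the LT difference was -1.83 ± 0.20 (SE, limma adjusted p = 0.00253). Hhex, a homeobox factor of blood and endothelial development, was at 12.6 against 30.6 RPKM in ST cells, with differences of -1.03 in LT and -1.82 in KLS- cells. Med1, a subunit of the Mediator complex, was at 13 against 34.5 RPKM, and Hist1h2bc, a histone H2B gene, at 9.29 against 34.9. Apobec3, a cytidine deaminase that restricts retroviruses, was at 25.8 against 83.8 RPKM, and Crip1, a small LIM-domain protein, at 81.7 against 246. For these last 4 genes the LT differences were -1.05, -1.50, -1.26 and -1.35, past 1 and with LT groups that did not overlap, as the rule for the 56 genes required. Cxcl10 and Ptgs2 were inflammatory genes of the same group, with Cxcl10, an interferon-induced chemokine, at 0.202 against 3.05 RPKM and Ptgs2, cyclooxygenase-2, at 2.38 against 7.61.

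Interferon-stimulated genes had more members lower in ST-CML than any other list. Of 62 members in the files, 60 passed 2 RPKM, 24 were lower by at least 1 and 2 were higher, beside 2.56% and 2.40% of all genes. Of the 60, 47 passed in both ST libraries, 12 through ST-HSCs alone and 1 through ST-CML alone. The counts of lower and higher members are therefore fixed in part by the minimum. The median difference of the 60 genes was -0.77, compared with -0.12 over all genes, and 55 of the 60 lay below that overall median. With quantile normalization 21 members were lower by at least 1 and with upper-quartile scaling 19. The same 60 genes had a median difference of -0.62 in LT and -0.65 in KLS- cells. Both LT-CML libraries were below both LT-HSC libraries for 40 of them and above for 2, beside 21.7% and 17.9% of all genes, and the limma fit called 11 lower and 1 higher, beside 1.22% and 1.23%.

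Windows of 60 bases from the promoters of 8 of the lower members are printed because they carry the core of the interferon-stimulated response element (ISRE), the DNA element bound by ISGF3. They come from RefSeq on GRCm38.p6 and each is written 5′ to 3′ on the strand of the gene, with capitals marking every match to GAAANNGAA on either strand.
Ifit1, chr19:34640767-34640826 (+): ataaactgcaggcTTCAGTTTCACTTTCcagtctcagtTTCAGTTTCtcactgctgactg
Ifit3, chr19:34583366-34583425 (+): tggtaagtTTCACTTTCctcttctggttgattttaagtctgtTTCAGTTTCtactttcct
Oas3, chr5:120777697-120777756 (-): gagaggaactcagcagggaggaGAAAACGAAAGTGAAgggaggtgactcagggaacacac
Rsad2, chr12:26456537-26456596 (-): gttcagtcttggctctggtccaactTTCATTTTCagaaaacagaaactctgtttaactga
Bst2, chr8:71537565-71537624 (-): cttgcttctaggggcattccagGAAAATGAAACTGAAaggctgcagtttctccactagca
Ifi203, chr1:173942493-173942552 (-): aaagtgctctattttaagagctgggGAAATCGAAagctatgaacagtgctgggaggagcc
Ifi205, chr1:174031855-174031914 (-): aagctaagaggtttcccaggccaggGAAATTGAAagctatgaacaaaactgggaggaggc
Trim12, chr7:104315471-104315530 (-): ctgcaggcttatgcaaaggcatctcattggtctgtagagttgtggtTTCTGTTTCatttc
Adjacent matches overlap in the Ifit1, Oas3 and Bst2 windows, where the capitals run on. The promoter table, which spans 250 bases before to 50 after each gene start, held an entry for 17 of the 24 lower members, and 12 of these 17 (70.6%) had a match. Of the 26 members with an entry that were not lower by 1, 16 (61.5%) had one. Over the 7224 compared genes with an entry the share was 8.91%, and over all 27025 promoters on hand 9.76%. The shares within the list were not compared by a test.

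Ifit1, an antiviral protein that binds foreign RNA caps, had 4.82 RPKM in ST-CML and 23.1 in ST-HSCs, 2.71 and 1.35 in LT-CML against 11.8 and 5.51 in LT-HSCs, and 0.383 against 3.16 in KLS- cells. Each CML value was below its normal counterpart, and the LT difference was -1.63 ± 0.34 (SE, limma adjusted p = 0.0409). Rsad2, which encodes the antiviral enzyme viperin, had 0.822 RPKM in ST-CML and 7.55 in ST-HSCs, 1.06 and 0.943 in LT-CML against 5.56 and 7.23 in LT-HSCs, and 0.0890 against 1.20 in KLS- cells. Here too the LT groups were apart, by -1.88 ± 0.22 (SE, limma adjusted p = 0.00269). Bst2, the virion tether tetherin, had 9.04 RPKM in ST-CML and 25.5 in ST-HSCs, 8.89 and 5.02 in LT-CML against 25.5 and 24.2 in LT-HSCs, and 16.8 against 44.8 in KLS- cells. Its difference of -1.40 in ST cells compared with -1.74 ± 0.25 in LT cells (SE, limma adjusted p = 0.00864).

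Ifi203, Ifi204 and Ifi205, interferon-inducible DNA sensors of the p200 family, were all among the lower members, and Mnda, a listed relative, did not pass 2 RPKM. Ifi203 had 18.1 RPKM in ST-CML and 71.3 in ST-HSCs, 14.7 and 13.4 in LT-CML against 41.8 and 43.0 in LT-HSCs, and 5.71 against 19.1 in KLS- cells. Ifi204 was at 1.0 RPKM in ST-CML and 8.90 in ST-HSCs, and its LT difference was -1.86 ± 0.20 (SE, limma adjusted p = 0.00220). Ifi205 was at 0 in ST-CML and in both LT-CML libraries, and at 5.37 RPKM in ST-HSCs and 3.97 and 4.87 in LT-HSCs. Taking 3 reads as the floor of the ST-CML library, Ifi205 was at least 53.8-fold lower. The 3 genes are near neighbours of similar sequence on chromosome 1, so reads may be shared among them. All 3 kept the same order of CML and normal libraries in the LT cells.

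Sensors, effectors and regulators were found among the other called members. Ifih1, the RNA sensor MDA5, was at 5.16 against 16.7 RPKM, and Dhx58, its partner LGP2, at 7.5 against 16.6. The oligoadenylate synthetases Oas2, Oas3, Oasl1 and Oasl2 differed by -2.56, -1.08, -2.05 and -1.06. Irf7, the factor that amplifies interferon production, was at 6.36 against 19.5 RPKM, and Usp18, the deubiquitinase-like inhibitor of the interferon receptor, at 7.09 against 30.1. For Oas2, Irf7, Oasl2 and Dhx58 the LT groups overlapped, and for Oas2 the normal LT-HSC libraries themselves were at 6.33 and 0.618 RPKM. Ifi44, Ifit3, Rtp4, Ifi27l1, Ifi27l2a, Cmpk2, Trim25, Samd9l and Ifit2 completed the lower members. The largest difference among them was -2.38 for Ifit3, from 5.62 to 0.268 RPKM, and the smallest was that of Ifit2, at 3.90 against 8.81 RPKM.

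Irf9, a DNA-binding component of ISGF3, was at 37.8 RPKM in ST-CML and 48.4 in ST-HSCs, and its difference of -0.35 did not reach the threshold of 1. Against the direction of the list, Trim21, a cytosolic antibody receptor and ubiquitin ligase, had 11.1 RPKM in ST-CML and 0.824 in ST-HSCs, 11.9 and 9.46 in LT-CML against 0.994 and 1.01 in LT-HSCs, and 5.38 against 0.587 in KLS- cells. It was higher in all 4 CML libraries, with an LT difference of 2.54 ± 0.20 (SE, limma adjusted p = 0.00041). Ifitm1, a membrane protein that restricts viral entry and the most abundant of the called members, was at 1080.0 against 486 RPKM, and in LT cells at 812 and 517 against 409 and 426.

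**Figure D3:**
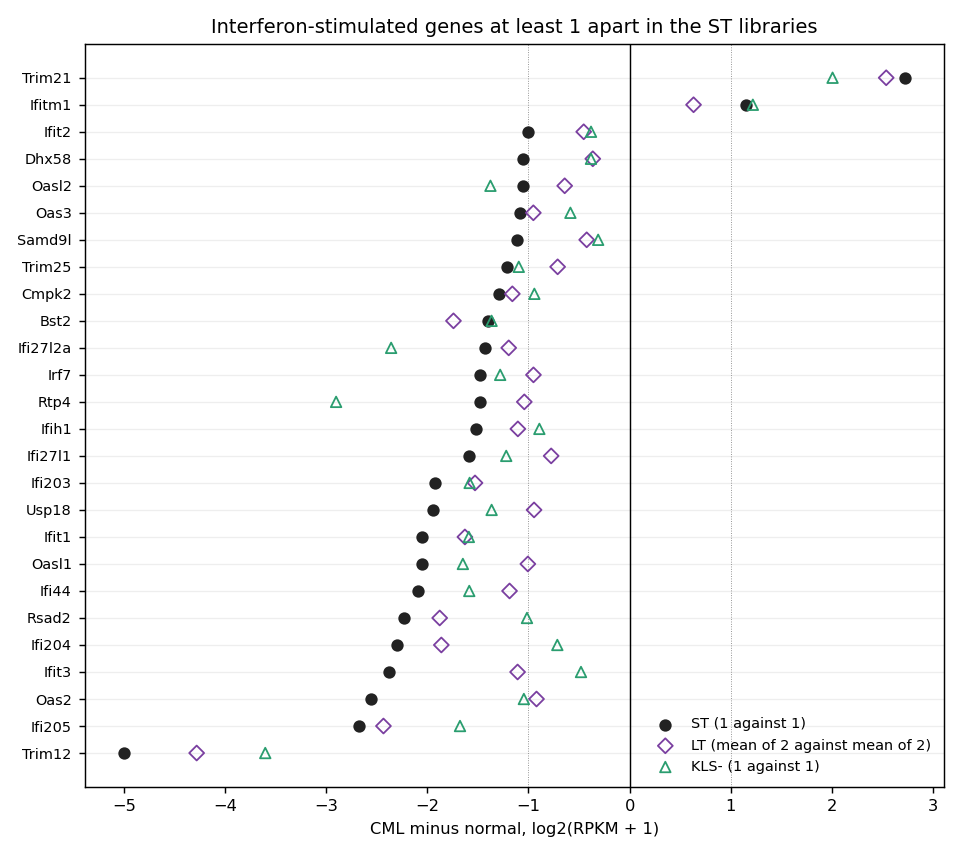
The 26 interferon-stimulated genes at least 1 apart between the ST libraries, with the difference CML minus normal in log2(RPKM + 1) on the x axis, for ST (filled circles), LT (open diamonds, mean of 2 libraries against mean of 2) and KLS- cells (open triangles). Dotted lines mark differences of -1 and 1. All 24 lower genes are also below 0 in LT and KLS- cells, though many by less than 1, and Trim21 and Ifitm1 are above 0 in all 3.

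Genes of MHC class I and peptide loading did not share a direction. Of 27 members past 2 RPKM, 4 were higher and 3 lower, beside 2.40% and 2.56% of all genes. H2-T3 and H2-Bl passed through ST-CML alone, so the count of higher members is fixed in part by the minimum. With quantile normalization or upper-quartile scaling 2 were lower, since H2-T23 then fell short of 1. H2-T3, the thymus leukaemia antigen, was at 8.30 RPKM in ST-CML and 0.122 in ST-HSCs, and H2-T24 at 38.7 and 7.07. Both were higher in the LT-CML libraries, by 2.56 ± 0.29 (SE, limma adjusted p = 0.00269) and by 2.55 ± 0.22 (SE, limma adjusted p = 0.00065). H2-Bl and H2-T10 were higher in ST-CML by 1.62 and 1.01, H2-Bl from a level of 0.0699 RPKM. Tap2, a subunit of the peptide pump of the endoplasmic reticulum, was lower, at 11.6 against 41.1 RPKM, but overlapped in LT cells. H2-Q7 and H2-T23, which encode the non-classical molecules Qa-2 and Qa-1, had differences of -1.37 and -1.06, beside LT differences of -1.44 (limma adjusted p = 0.00649) and -1.10 (limma adjusted p = 0.0226). Class I genes are near-identical in sequence, so these values may include reads from related genes.

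MHC class II genes were split as well, with 3 of 9 higher and 3 lower, beside 2.40% and 2.56% of all genes. H2-DMb2 passed 2 RPKM through ST-CML alone, and H2-Ob and H2-Eb1 through ST-HSCs alone. These counts are therefore fixed in part by the minimum. Cd74, the invariant chain, was at 195 RPKM in ST-CML and 64.8 in ST-HSCs, and H2-Aa, a class II alpha chain, at 83.5 and 25.8. In LT cells Cd74 was at 61.7 and 45.9 against 98.7 and 330.2, the reverse order. H2-DMb2, a subunit of the peptide exchange factor H2-DM, was at 15.8 against 1.83 RPKM, and its partner H2-DMa at 78.7 against 198. Thus H2-DMb2 and H2-DMa differed in opposite directions, and they did so in LT cells too, where the differences were 2.52 for H2-DMb2 and -1.02 for H2-DMa. H2-DMb1, the other beta chain gene of H2-DM on the list, stayed within 1. It was at 25.5 against 22.6 RPKM, a difference of 0.17, with an LT difference of -0.34. H2-Eb1 was at 0.772 against 5.32 RPKM, and was at most 0.772 RPKM in every CML library.

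Several granule genes of neutrophils and their precursors were among the highest genes in ST-CML. All 6 listed genes of the primary granule stage passed 2 RPKM, 2 of them through ST-CML alone, and 5 were higher by at least 1. Of 10 late granule and S100 genes in the files, 7 passed, 4 of them through ST-CML alone, and those 7 were higher by at least 1. These numbers are fixed in part by the minimum and are not set against all genes. The 3 late genes that did not pass were Cebpe at 1.60 against 0 RPKM, Mmp8 at 0.809 against 0.130 and Mmp9 at 0.256 against 0.203. Ela2, neutrophil elastase, was at 627 RPKM in ST-CML and 9.72 in ST-HSCs. In the other libraries it was at 2.62 and 1120.0 in LT-CML, 25.2 and 125 in LT-HSCs, and 5672 against 3582 in KLS- cells. The 2 LT-CML libraries thus lay on either side of both LT-HSC libraries. Mpo, myeloperoxidase, was at 830.1 against 95.5 RPKM in ST cells and at 5.20 and 1291 against 31.8 and 69.9 in LT cells. Ctsg, cathepsin G, was at 56.8 against 2.02 RPKM. Ms4a3 and Igsf6, membrane proteins of granulocyte-monocyte precursors and myeloid cells, were at 86.0 against 1.84 and 19.8 against 1.60 RPKM. Prtn3, proteinase 3, was the member that stayed within 1, at 252 against 136 RPKM. No primary granule gene had LT groups that were separate.

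The LT libraries did not repeat the ST differences of the late granule genes. Camp, the cathelicidin precursor, had 57.8 RPKM in ST-CML and 0.267 in ST-HSCs, 32.1 and 86.2 in LT-CML against 49.9 and 432 in LT-HSCs, and 37.7 against 3.87 in KLS- cells. The ST-HSC library held 3 estimated reads of Camp, giving a ratio of 217 with an interval of 74.1 to 1057, whereas the highest value of all was in the 6-month LT-HSC library. Ngp, neutrophilic granule protein, was at 55.9 against 0.458 RPKM in ST cells and at 54.2 and 117 against 94.7 and 688 in LT cells. S100a8 and S100a9, the subunits of calprotectin, were at 227 against 8.55 and at 56.5 against 3.27 RPKM, and Ltf, lactoferrin, at 4.81 against 0.194. Both LT-CML libraries were below both LT-HSC libraries for Ltf and Retnlg and overlapped them for the other 5, and none passed the limma test.

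Summed over their lists, the primary granule genes came to 1872 RPKM in ST-CML, 246 in ST-HSCs, 102 and 3056 in LT-CML and 130.1 and 343 in LT-HSCs. The late granule and S100 genes, 10 in the files, came to 421 RPKM in ST-CML and 16.2 in ST-HSCs, and ranged from 241 to 4115 over the LT libraries. Normal ST-HSCs had the lowest late granule sum of the 8 libraries, and Cebpe was the only late member at 0 there. The part of a few more mature cells in these ST differences was not tested. Ly6c2 and F13a1, monocyte genes on a list of which 7 members passed, moved with them, at 114 against 2.06 and 10.4 against 0.248 RPKM, while the other 5 of that list stayed within 1. Chi3l3, a chitinase-like protein of myeloid cells and the sixth highest gene, was at 57.0 against 0.138 RPKM, with overlapping LT groups.

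Of 15 mast cell, basophil and eosinophil genes in the files, 11 passed 2 RPKM, of which 10 were higher by at least 1 and 1 was lower. Because 8 of the 11 passed through the ST-CML library alone, their number is fixed in part by the minimum and is not set against all genes. The other 4 were Ms4a2 at 0.584 against 0.211 RPKM, Il1rl1 at 0.339 against 0.0734, Mcpt4 at 0.650 against 0, and Cd200r3 at 0.0382 against 0.250. Cma1, mast cell chymase, was at 16.9 RPKM in ST-CML and at 0 in ST-HSCs and all 4 LT libraries. With 3 reads as the floor of the ST-HSC library, the Cma1 level was at least 114-fold higher in ST-CML, and the tryptase genes Tpsb2 and Tpsab1 were at least 63.8-fold and 43.8-fold higher on the same floor. Tpsb2 and Tpsab1 are close relatives, so reads may be shared. Gzmb, a granule protease, was at 7.84 RPKM in ST-CML and below 0.5 RPKM in ST-HSCs and the LT libraries, and reached 5.79 RPKM in normal KLS- cells. These 4 genes were therefore higher in the ST-CML library than in any other library measured.

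Eosinophil genes had another pattern. Prg2, the major basic protein, was at 43.0 RPKM in ST-CML and 0.635 in ST-HSCs, and Epx, eosinophil peroxidase, at 2.89 and 0. In LT-CML, Prg2 was at 65.2 and 2.23 and Epx at 4.47 and 0.306, with the higher value of each in the first library. KLS- cells of CML mice held the most, at 484 RPKM of Prg2 and 83.0 of Epx. Hdc, Fcer1a, Cpa3 and Mcpt8 were higher in ST-CML by 1.37, 1.31, 1.22 and 1.21, and Prss34, a basophil protease, had a difference of -1.24. Both LT-CML libraries were above both LT-HSC libraries for Epx and Fcer1a, without passing the limma test (adjusted p = 0.413 and 0.0528), and the other 9 genes of the list overlapped there. The list summed to 113 RPKM in ST-CML, 17.0 in ST-HSCs and 11.6 to 76.2 in LT libraries, and whether a small number of such cells entered the sort was not tested.

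**Figure D4:**
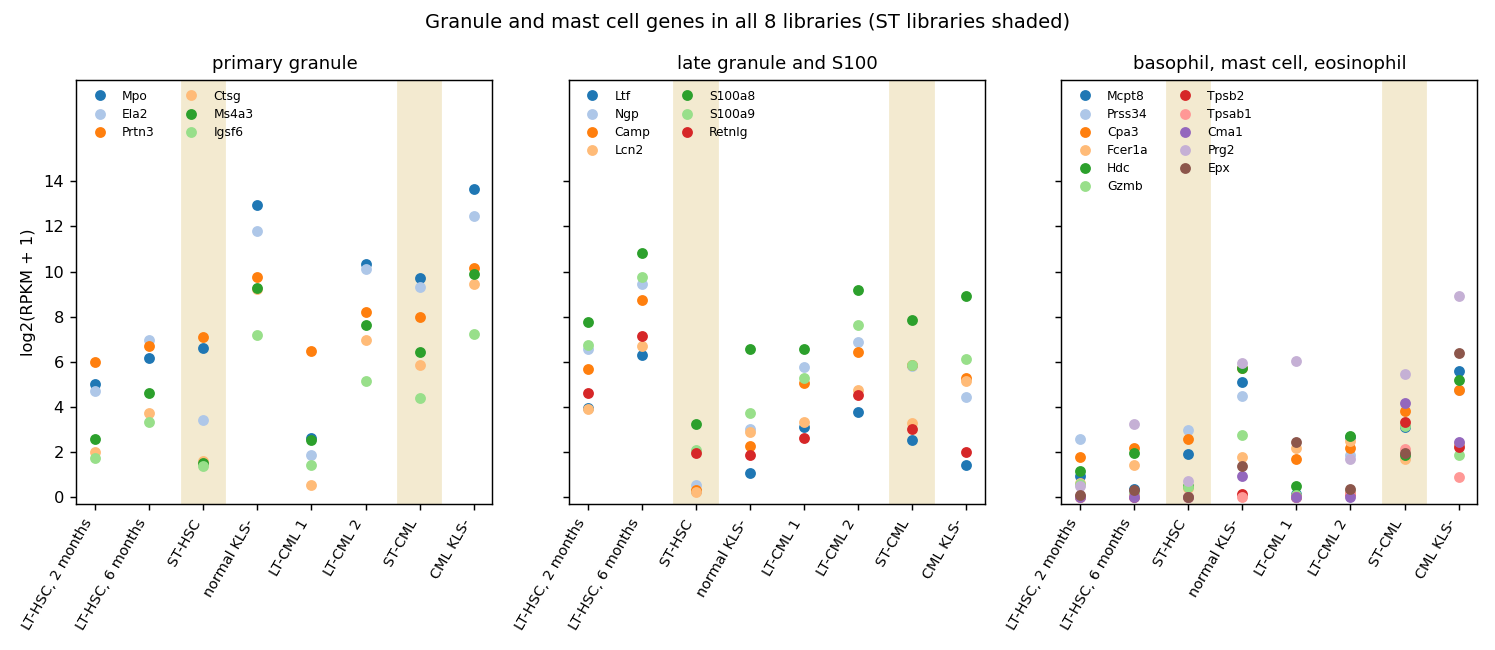
Level in log2(RPKM + 1) on the y axis of primary granule genes (left), late granule and S100 genes (middle) and basophil, mast cell and eosinophil genes (right) in the 8 libraries on the x axis, with the ST libraries shaded and each colour 1 gene. The left and middle panels show ST-CML above ST-HSCs but LT libraries of the same state far apart, and the right panel shows Cma1, Tpsb2 and Gzmb at their highest in ST-CML.

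Markers of other lineages moved in smaller numbers. Of 11 B lymphoid genes in the files 5 passed 2 RPKM, 4 of them through ST-CML alone, and 3 were higher, namely Cd79a, a signalling chain of the B cell receptor, at 6.43 against 0.201 RPKM, Vpreb3 at 7.58 against 0.884, and Vpreb1, a surrogate light chain, at 6.48 against 1.75. Cd79a and Vpreb3 were lower in both LT-CML libraries than in both LT-HSC libraries, with a limma adjusted p of 0.0294 and 0.0698. The 11 B lymphoid genes in the files summed to 73.0 RPKM in ST-CML and to 32.0 to 50.1 in the other libraries, with Ebf1 at 1.82 against 0.0711 and Pax5 at 0 in ST-HSCs, and whether B cell precursors entered the ST-CML sort was not tested. Erythroid genes were divided, 3 of 10 higher and 2 lower (beside 2.40% and 2.56% of all genes), with Car1 and Rhag among the former at differences of 2.04 and 1.40, and the beta-globin genes Hbb-b1 and Hbb-b2, near-identical copies, at -1.19 and -2.47. Of the 10, 3 passed 2 RPKM through ST-CML alone, Rhag among them, and the 2 globin genes through ST-HSCs alone. These counts are therefore fixed in part by the minimum. Of the megakaryocyte genes, F2r, the thrombin receptor PAR1, was at 56.7 against 15.5 RPKM. Treml1, a platelet granule protein that passed 2 RPKM through ST-CML alone, was at 2.20 against 0.305. F2r and Treml1 were 2 of 12 members, beside 2.40% of all genes. Both were also above normal in the 2 LT-CML libraries, by 1.09 and 1.04 on average, though neither passed the limma test (adjusted p = 0.0933 and 0.0857). Of 3 T and NK cell genes and 2 stromal or endothelial genes past 2 RPKM, none differed by 1, and the endothelial gene Cdh5 was at 0 in both ST libraries.

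Targets and feedback inhibitors of cytokine and kinase signalling formed a list because BCR-ABL1 activates these pathways. Of 18 members past 2 RPKM, 2 were higher and 2 lower, beside 2.40% and 2.56% of all genes. Cish, a STAT5-induced inhibitor of cytokine receptors, had 23.3 RPKM in ST-CML and 8.25 in ST-HSCs, 28.9 and 19.8 in LT-CML against 10.8 and 12.8 in LT-HSCs, and 1.84 against 0.640 in KLS- cells. Socs2, another STAT5-induced suppressor of cytokine signalling, had 10.8 RPKM in ST-CML and 2.28 in ST-HSCs, 12.1 and 9.01 in LT-CML against 6.63 and 3.25 in LT-HSCs, and 0.378 against 0.514 in KLS- cells. LT-CML and LT-HSC libraries were separate for both genes, with differences of 0.97 ± 0.23 for Cish (SE, limma adjusted p = 0.0728) and 1.01 ± 0.29 for Socs2 (SE, limma adjusted p = 0.146), neither of which passed 0.05. The ST ratios were 2.82 (interval 2.62 to 3.04) and 4.74 (interval 4.26 to 5.29).

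The start of the Cish gene is printed because it holds 2 STAT core elements, TTCNNNGAA, marked in capitals in this window of 60 bases from RefSeq on GRCm38.p6.
Cish, chr9:107296624-107296683 (+): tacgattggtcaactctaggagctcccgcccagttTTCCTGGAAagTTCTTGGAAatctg
This element was found in 3 of the 13 promoters available for the list and in 8.68% of the promoters of all compared genes. It was not particular to the list, being in 11 of the 43 promoters available for the interferon-stimulated genes. Among all genes called higher the share was 16.9%, and among all called lower 7.02%. These shares were not compared by a test. Cish lies at chr9:107198357-107205115 on mm9. Dusp6, the phosphatase that limits ERK, was lower, at 21.6 against 48.4 RPKM, and Spry1, an inhibitor of receptor tyrosine kinase signalling, at 4.80 against 11.2. In LT cells both were below normal in each library, by -0.57 and -0.77 on average. Spry1 fell short of 1 with upper-quartile scaling.

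Immediate early genes were lower in 5 of 22 and higher in none, beside 2.56% and 2.40% of all genes. Of the 22, 2 passed 2 RPKM through ST-HSCs alone, Atf3 among them. Nr4a1, an orphan nuclear receptor, had 81.8 RPKM in ST-CML and 251 in ST-HSCs, 80.8 and 126 in LT-CML against 252 and 368 in LT-HSCs, and 3.29 against 7.76 in KLS- cells. All CML stem cell libraries were below all normal ones, and the LT difference was -1.58 ± 0.28 (SE, limma adjusted p = 0.0210). Atf3 was at 1.47 against 12.7 RPKM, Fosl2 at 3.68 against 15, Nr4a2 at 4.24 against 12.5 and Klf4 at 3.91 against 10.8. Both LT-CML libraries were below both LT-HSC libraries for all 5, beside 21.7% of all genes, and Atf3 alone missed the limma threshold (adjusted p = 0.0754). The median of the 22 genes was -0.36 in ST, -0.55 in LT and -0.88 in KLS- cells.

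Cell cycle genes were nearly all within 1 of each other in the ST libraries. Of 29 S phase genes, 26 lay below the overall median of -0.12, with a list median of -0.55, and only Pole, the catalytic subunit of DNA polymerase epsilon, differed by 1 or more, at 1.5 against 6.76 RPKM, beside 2.56% of all genes lower by as much. Pole was 1 of 3 members of the list that passed 2 RPKM through ST-HSCs alone. The same S phase genes had a median difference of -0.097 in LT and -0.10 in KLS- cells, so the ST shift was not repeated there at that size. The S phase list summed to 570.2 RPKM in ST-CML and 869 in ST-HSCs, and to 881 to 1042 in 3 LT libraries and 1363 in the 2-month LT-HSC library. Genes of G2 and M phase had a median of -0.27 with no member past 1, beside medians of 0.18 in LT and 0.003 in KLS- cells. Their sum was lower in both ST libraries, at 188 and 231 RPKM, than in any LT library. The inhibitors Cdkn1a (p21) and Cdkn1b (p27) were lower in ST-CML, at 7.72 against 19.8 and 7.36 against 15.9 RPKM, out of 12 CDK inhibitors and D cyclins, beside 2.56% of all genes. Their LT differences were -1.20 (limma adjusted p = 0.160) and -1.04 (limma adjusted p = 0.0283). With quantile normalization or upper-quartile scaling Cdkn1b fell short of 1 in ST cells.

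Transporters of small peptides and amino acids differed at single genes. Slc15a2, the peptide transporter PEPT2 and 1 of 2 such transporters past 2 RPKM, had 10.3 RPKM in ST-CML and 3.13 in ST-HSCs, 8.75 and 9.94 in LT-CML against 2.64 and 3.07 in LT-HSCs, and 2.28 against 1.31 in KLS- cells. The CML stem cell libraries were all above the normal ones, the ST ratio was 3.28 (interval 2.94 to 3.66), and the KLS- difference was 0.51. Of 14 amino acid transporters, 1 was higher by at least 1, beside 2.40% of all genes. It was Slc7a8, a carrier of neutral amino acids, at 17.5 against 4.22 RPKM, with an LT difference of 1.88 ± 0.24 (SE, limma adjusted p = 0.00407) and a KLS- difference of 0.32. Both genes were thus further apart in the stem cell gates than in KLS- cells, although that contrast between populations was not tested.

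In the TGF-beta, p38 and FOXO pathway list, 2 of 22 members were higher and 2 lower, beside 2.40% and 2.56% of all genes. Of the 22, 3 passed 2 RPKM through ST-CML alone, among them both higher members, Tgfbr3 and Mapk13. The count of higher members is therefore fixed in part by the minimum. Tgfbr3, the co-receptor betaglycan, was at 7.32 against 1.26 RPKM in ST cells and at 25.9 and 26.2 against 8.68 and 11.3 in LT cells. Mapk13, the p38 delta kinase, was at 2.01 against 0.115 RPKM, the latter from 3 estimated reads, and its LT groups overlapped. Sgk1, a kinase that phosphorylates FOXO factors, was at 9.90 against 47.7 RPKM, with LT values of 13.8 and 22.5 against 37.4 and 41.4. Skil, a repressor of SMAD signalling, had a difference of -1.03, and was no longer past 1 under either other scaling of the libraries.

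Regulators and receptors of stem cells are given here with their counts of higher and lower members, to be read beside 2.40% and 2.56% of all genes. Of 31 stem cell transcription factors and regulators, Gfi1 and the non-coding RNA Meg3 were higher, at 3.19 against 0.911 and 2.98 against 0.640 RPKM, and Angpt1, a niche-signalling ligand made by the stem cells themselves, was lower, at 81.0 against 165, but fell short of 1 with quantile normalization and upper-quartile scaling. Of 18 myeloid cytokine receptors, the homing receptor Cxcr4 and the interferon-gamma receptor chain Ifngr2 were higher, by 1.12 and 1.12, and Il18r1, a chain of the interleukin-18 receptor, had a difference of -1.41. Of 22 adhesion and homing genes, the integrin chains Itgb2 and Itgb3 were higher, at 19.3 against 7.55 and 3.92 against 1.22 RPKM. The list of early lymphoid priming genes summed to 440.1 RPKM in ST-CML and 695 in ST-HSCs, both above the LT libraries. In the Gimap family of lymphoid GTPases, Gimap7 was at 0.296 against 7.59 RPKM and Gimap3 at 10.8 against 1.31, in opposite directions, while the other 6 of 8 stayed within 1. Gpx3, a secreted glutathione peroxidase, was the 1 of 19 antioxidant genes past 1, at 2.70 against 0.660 RPKM. No member of the glycolysis list (22 genes), the BCL2 family (8) or the housekeeping list (9) differed by 1 or more. Of the genes named here, Gfi1, Meg3, Itgb3, Gimap3 and Gpx3 passed 2 RPKM through ST-CML alone, and Il18r1 and Gimap7 through ST-HSCs alone. The counts of their lists are therefore fixed in part by the minimum.

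**Figure D5:**
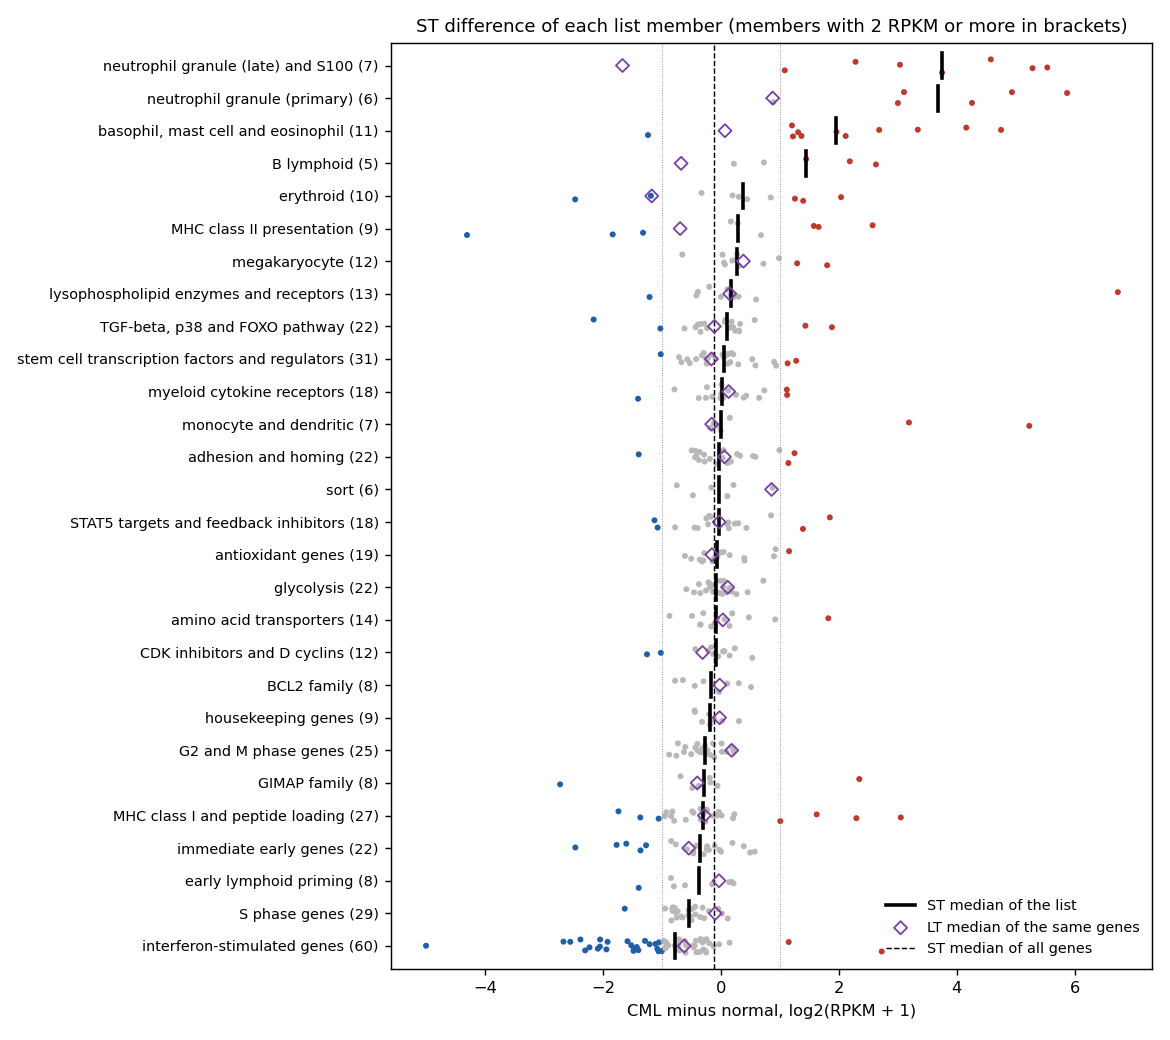
Each point is a listed gene with at least 2 RPKM in either ST library, placed by its ST difference in log2(RPKM + 1) on the x axis, with lists on the y axis, ordered by median. Red and blue points are at least 1 higher or lower, black bars are list medians, open diamonds the LT median of the same genes, and the dashed line is the median of all genes, -0.12. Granule and mast cell lists, whose members passed 2 RPKM in part through ST-CML alone, lie at the top with LT medians well below their ST medians, and interferon-stimulated genes lie at the bottom with an LT median close to the ST one.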

How the data were processed

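The authors sorted cells into lysis solution, made libraries from total RNA with the SMARTer Ultra Low Input kit (oligo-dT priming), sequenced them as paired reads of 100 bases on an Illumina HiSeq, mapped them to mm9 and deposited RPKM for each gene. The gene annotation and counting rule were not given in the sources used here. Labels gave the groups. The members and gene lists were chosen with earlier results of these data known.

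RPKM was used as deposited, as log2(RPKM + 1), for genes with at least 2 RPKM in either ST library. A difference of 1 was called. Named genes were the 12 largest differences in each direction, the defining members of each list and those farthest apart, and genes past 1 in opposite directions in ST and LT cells. The rule took up to 6 members of a list, and lists with more members past 1 were named in full. Parent genes of copies and some genes past 1 in all populations were added after their values were seen. A few members of the lists are not reported here. The 4 LT libraries were tested with limma 3.58.1 in R 4.3.3, in a fit of all 8 libraries with 6 population means (2 residual degrees of freedom, intensity trend, Benjamini-Hochberg, 0.05), over genes with at least 2 RPKM in any library. Nothing states that the LT libraries came from separate animals, so p-values measure the spread between these libraries, and the LT-HSC pair differs in age. Reads behind a value were estimated from the steps of RPKM values below 0.3 and the exon lengths of GENCODE M1 (mm9), with which 93.2% of gene names matched 1 locus. The scripts were tested on simulated data. Promoters were from RefSeq (GRCm38.p6), matched by symbol or by a synonym of 1 gene, for 7224 of 8987 genes. Alternatives were other pseudocounts, minima and scalings, and leaving out each LT library. Python 3.11.15 was used for the remainder.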

Additional observations from a re-analysis of the deposited data

Results flagged for a closer look

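For 11 genes the ST difference and the LT libraries lay wholly on opposite sides: the ST difference was at least 1 in size, and both LT-CML libraries lay on the other side of both LT-HSC libraries, with a mean LT difference of at least 1. The difference between ST and LT cells was not tested for any of them, since ST cells have 1 library in each group.

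Of B lymphoid and antigen presentation genes, Cd79a had an ST difference of 2.63 and an LT difference of -1.51, Vpreb3 had 2.19 and -1.31, Cd74 had 1.58 and -1.75, and Ly6d, a surface marker of lymphoid progenitors committed to the B lineage, had 2.88 and -1.64. Of erythroid genes, Car1, carbonic anhydrase 1, had 2.04 and -2.53, and Rhd, the Rhesus D blood group protein, had 1.56 and -1.14. Cldn13, a claudin, had 1.79 and -1.06, and 2010001M09Rik had 2.67 and -1.29. Of late granule genes, Ltf had 2.28 and -1.67, and Retnlg had 1.08 and -2.30. Slc35d3, a nucleotide sugar transporter family member, was the gene with a negative ST difference, of -1.04, and an LT difference of 1.08.

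The level in the LT-HSC pair itself was uneven for some of these genes, as Cd74 stood at 98.7 and 330.2 RPKM in the 2-month and 6-month libraries and Ltf at 14.5 and 76.7. Car1 was even, at 30.6 and 26.7 RPKM, against 2.71 and 6.11 in LT-CML, 91.7 in ST-CML and 21.6 in ST-HSCs.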

How the results depend on the processing

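With other pseudocounts, minima and scalings the ST comparison gave 149 to 289 genes higher and 169 to 326 lower, beside 216 and 230. The ST differences of 126 named genes kept their sign with a pseudocount of 0.1, quantile normalization and upper-quartile scaling, and 126, 119 and 115 of them stayed past 1. Of these recomputed differences 308 moved by less than the residual SD of the gene in the limma fit and 70 by more. The medians of the STAT5, adhesion, amino acid transporter, glycolysis, CDK inhibitor, antioxidant, monocyte and sort marker lists changed sign with the scaling, and no direction is claimed for them. The counts of the LT limma test depended on the minimum and on each library: with no minimum on RPKM it called 0 genes higher and 0 lower of 18513 (1765 at an unadjusted p below 0.05, compared with 1141 of 9778 with the minimum). Leaving out 1 LT library, with the lone library taken to vary like the others, gave 20 to 53 genes higher in place of 120 and 8 to 55 lower in place of 119. Without the second LT-CML library it gave 20 and 8, without the first 36 and 17, without the 2-month LT-HSC library 53 and 55, and without the 6-month one 47 and 34. Leaving out an LT library gave 136 to 174 genes of the same LT direction among those higher in ST-CML and 188 to 211 among those lower. Such an ordering of fewer libraries can only keep or raise these counts, so they do not show how stable the result is. In a check added after seeing the data, leaving out genes whose LT replicates were at least 1 apart left 121 of the former and 167 of the latter. That step also removed 71 of the 216 higher and 31 of the 230 lower genes. The 121 and 167 are therefore out of fewer genes than the 136 and 181 of the main comparison, and are not a loss of shared direction by themselves. The shares over all genes under these changes are not given. No paired analysis was possible because the labels give no number that ties a normal library to a CML library.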
